A study of Homo sapiens with 6 samples.

Results

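The subject here is a set of 10 genes for the coat of lipid droplets, for the release of fatty acids from them and for the last step of triglyceride synthesis: G0S2, PNPLA2, ABHD5, LIPE, PLIN2, PLIN3, PLIN4, PLIN5, DGAT1 and DGAT2. They were chosen by symbol for these functions, with the genotype differences of this same table already known, and all 10 were found among its 35793 genes. Their differences are therefore a description of these libraries, and the p-values printed with them, which come from a fit over all genes tested, place each gene in that table and are not independent evidence. RNA was measured in cardiomyocytes grown from WTC11, an established human induced pluripotent stem cell line, on day 15 of differentiation. The 2 genotypes were the unedited line (wild type) and a WTC11 derivative carrying a homozygous CRISPR/Cas9 knockout of STK25, with 3 biological replicates each and no treatment. The labels name 1 knockout line, so the edit and any other difference between the lines cannot be told apart, and they do not say whether the replicates were separate differentiations, so p-values measure the spread between these libraries.

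Triglyceride is stored in droplets whose surface is covered by perilipins, which control the access of lipases. PNPLA2 (adipose triglyceride lipase) takes the first fatty acid from triglyceride, is activated by ABHD5 and inhibited by G0S2; LIPE (hormone-sensitive lipase) acts on the diglyceride that remains. DGAT1 and DGAT2 make triglyceride from diglyceride. In heart muscle the turnover of droplets supplies fatty acids for oxidation and for nuclear receptors of the PPAR family. STK25 is a kinase that has been found on lipid droplets in liver and other tissues.

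The stretches upstream of the start sites of G0S2, PLIN2 and PLIN5 are shown because these were the member that fell and the droplet coat genes whose knockout values all lay under the wild-type ones. They are the 250 bases before the RefSeq start on GRCh38.p14, 5′ to 3′ on the gene's strand, taken from a RefSeq set that held 8 of the 10 members. Capitals mark exact matches, on either strand, to the TATA box core TATAA, to the CCAAT box, to the GC box GGGCGG, to the E-box CACGTG or to the nuclear receptor core AGGTCA. GC box matches may overlap each other. G0S2 is at chr1:209675162-209675411 on the plus strand, PLIN2 at chr9:19127493-19127742 and PLIN5 at chr19:4535225-4535474, both on the minus strand.
G0S2: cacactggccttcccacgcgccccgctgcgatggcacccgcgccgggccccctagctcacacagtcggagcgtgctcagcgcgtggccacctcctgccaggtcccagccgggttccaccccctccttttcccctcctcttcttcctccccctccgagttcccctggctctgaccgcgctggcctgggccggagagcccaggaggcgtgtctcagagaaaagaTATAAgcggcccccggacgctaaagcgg
PLIN2: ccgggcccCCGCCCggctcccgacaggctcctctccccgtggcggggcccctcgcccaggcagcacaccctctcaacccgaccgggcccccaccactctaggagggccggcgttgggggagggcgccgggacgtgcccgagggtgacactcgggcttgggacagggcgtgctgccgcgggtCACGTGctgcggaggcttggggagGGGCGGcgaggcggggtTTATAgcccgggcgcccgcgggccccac
PLIN5: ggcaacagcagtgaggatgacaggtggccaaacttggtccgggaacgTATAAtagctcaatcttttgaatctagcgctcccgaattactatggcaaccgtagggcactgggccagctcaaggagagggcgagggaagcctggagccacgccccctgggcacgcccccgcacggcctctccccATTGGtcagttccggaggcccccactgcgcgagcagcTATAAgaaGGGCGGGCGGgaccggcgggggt

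Each of these 3 windows had a TATAA match whose leftmost base, as printed, lay 28 (G0S2), 28 (PLIN2) or 31 (PLIN5) bases before the start. PLIN4 had one at 29 bases. The PLIN2 match was on the opposite strand, so that the printed letters read TTATA, and the other matches named were on the gene's strand. The windows of PNPLA2, ABHD5, LIPE and PLIN3 had none anywhere. Over all 35116 windows of that length in that set, 18.9% held TATAA on either strand. In 4.19% the leftmost base of a match on either strand lay 25 to 35 bases before the start, a range set after these sequences were read. The G0S2 window held none of the other 4 motifs, which were in 32.0% (CCAAT), 42.6% (GC box), 6.34% (E-box) and 12.1% (receptor core) of all windows. PLIN2 had an E-box and 2 GC boxes, and PLIN5 had a CCAAT and 2 GC boxes. Among the members AGGTCA was met in the PNPLA2 window only, and 2 copies in one direction with 1 base between them, the form PPAR binds, in none of them and in 6 of all windows. The G0S2 window had 21 CpG, more than 69.8% of all windows. A match to these letters is a description and shows no binding.

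The libraries held between 22443904 and 53224112 reads assigned to genes, and 15536 genes entered the test, those whose normalized count averaged 10 or more. Wild-type replicate 2 and knockout replicate 1 stood apart from the rest on the second principal component (24.1% of the variance). Fits without 1 or both of them are given for part of the values only, so other values may also turn on either. All 10 cardiomyocyte markers checked were detected in every library, TNNT2 from 206999 to 359162 normalized counts. Their levels were not alike in the genotypes. At an adjusted p under 0.05, 3 were lower and 0 higher, against 6.79% lower and 5.97% higher of all genes tested. For 8 of the 10 the values of the genotypes did not overlap, against 33.4% of all genes tested. NPPA, an atrial hormone, was at 19.6% of its wild-type mean in the knockout (limma adjusted p = 0.00463), the transcription factor NKX2-5 at 30.6% (0.00135) and PLN, a regulator of the calcium pump, at 58.8% (0.0459). MYH7 was at 251% (0.0639), ACTN2 at 223% (0.0888), MYL7 at 273% (0.114) and MYH6 at 43.6% (0.0531), which did not pass. The part of these differences in the lipid gene values was not tested. STK25 itself was at 8874, 6774 and 8710 normalized counts in wild-type replicates 1, 2 and 3 and at 3906, 3434 and 3820 in the knockout, 45.8% of the wild-type mean. Its log2 fold change was -1.12 (SE 0.19, limma adjusted p = 0.00903), and without wild-type replicate 1 the adjusted p was 0.0611. So the gene's RNA was lower in the knockout but remained in all of its libraries.

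Among the 10 members 1 passed the threshold of an adjusted p under 0.05: G0S2, which was lower in the knockout. Over all genes tested the share called was 12.8%, with 6.79% lower and 5.97% higher, so 1 of 10 is near that background. Separated genotypes, meaning that no value of one genotype lay within the range of the other, were met for 5 members (G0S2, PLIN2, PLIN5 and DGAT2 below, DGAT1 above the wild type), against 33.4% of all genes tested. The members' median log2 fold change was -0.12, and -0.07 without G0S2, against 0.01 over all genes tested. Of the members 4 had a fitted difference above 0 and 6 below; whether the members differ from one another was not tested.

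G0S2 (ENSG00000123689.5, chromosome 1, 209675420 to 209676388, plus strand in GENCODE 29 on GRCh38) encodes the small protein that inhibits PNPLA2. Its normalized count was 556, 1016 and 479 in wild-type replicates 1, 2 and 3, which stood for 368, 1334 and 751 reads. In knockout replicates 1, 2 and 3 it was 1.27, 2.23 and 2.67, which stood for 1, 2 and 3 reads. The transcript was thus close to absent in every knockout library, and the lowest wild-type library lay far above the highest knockout one. The mean fell from 684 ± 290 to 2.06 ± 0.714 normalized counts (SD, n = 3 each). Pooled over the libraries of a genotype, the 2453 wild-type reads against 6 knockout reads gave a 324-fold difference, with an exact 95% binomial interval of 149 to 884 that covers counting error only. On the log2(value + 1) scale, which understates the change of a gene this low, the log2 fold change was -7.76 (SE 0.48, limma adjusted p = 0.000177), rank 23 of the 15536 genes by p. It stayed past the threshold in each of the 6 fits that left out 1 library, from -7.97 to -7.43 with adjusted p-values up to 0.00335, and edgeR on the recovered reads gave -8.27 (adjusted p = 0.000233). The full annotation has an antisense gene, AL031316.1, across G0S2 on the other strand, and whether the counting used strand is not given in the sources used here.

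**Figure D1:**
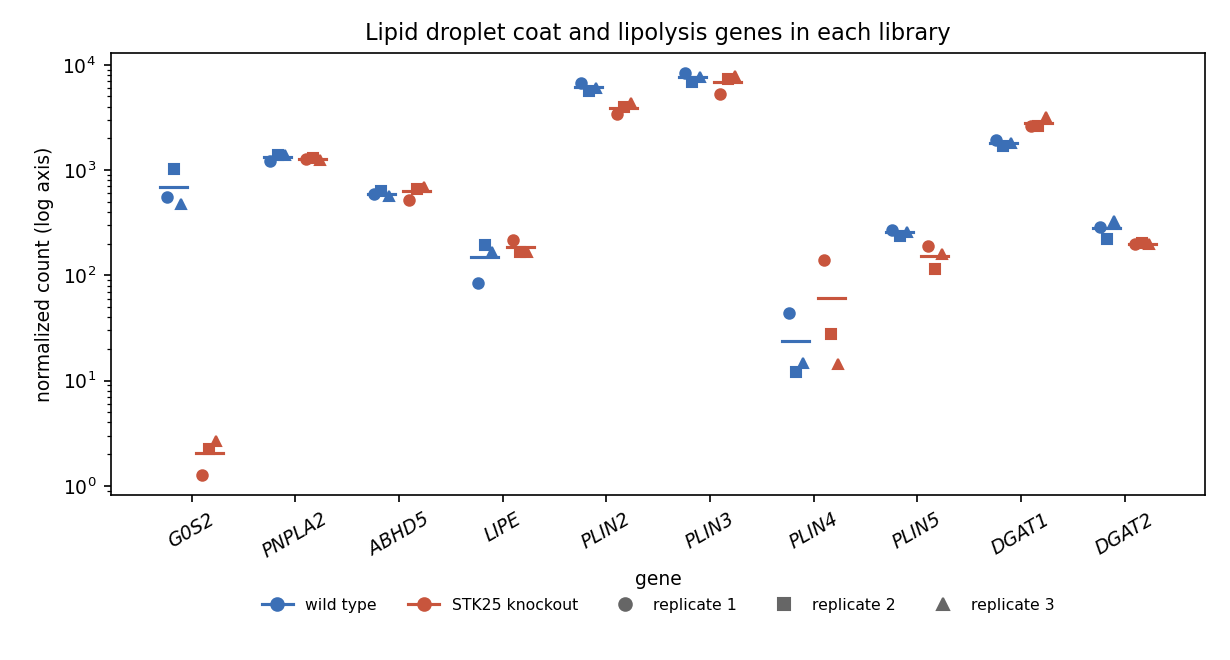
Normalized counts of the 10 members in each library on a log axis, wild type in blue and knockout in red, with symbols for replicates and bars at the genotype means. G0S2 went from 479 or more in the wild type to 2.67 or less in the knockout, while PNPLA2 and ABHD5 lay at like levels in both genotypes.

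The lipase that G0S2 inhibits, PNPLA2, was at 1223, 1389 and 1389 normalized counts in the wild type and at 1271, 1301 and 1242 in the knockout. The ranges overlapped, and the knockout values were within the spread of the wild-type ones. Its log2 fold change was -0.07 with a 95% interval from -0.48 to 0.35 (limma adjusted p = 0.858), so that interval holds neither a fall nor a rise of 1 log2 unit. ABHD5, the coactivator of PNPLA2, had 588, 637 and 570 normalized counts in the wild type and 522, 660 and 696 in the knockout, which also overlapped. Its log2 fold change was 0.06, with an interval from -0.45 to 0.56 (limma adjusted p = 0.906). LIPE was low, at 84.6, 196 and 167 normalized counts in the wild type and 216, 167 and 168 in the knockout. Wild-type replicate 1 was the low library here, and without it the log2 fold change went from 0.37 (interval -0.52 to 1.27, limma adjusted p = 0.591) to 0.01. The lipases and the activator thus did not pass the threshold, in libraries where the inhibitor's transcript was down to at most 3 reads.

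Among the perilipins, PLIN2, which coats droplets in most cell types and is degraded when it is not bound to them, had 6783, 5611 and 6007 normalized counts in the wild type. The knockout libraries had 3432, 3992 and 4311, all under the lowest wild-type value, and their mean was 63.8% of the wild-type mean. The log2 fold change was -0.65 (SE 0.18, 95% interval -1.08 to -0.23), with a limma adjusted p of 0.0574, just over the threshold. PLIN2 was under the threshold with libraries scaled to equal upper quartiles (adjusted p = 0.0387), equal totals (0.0439) or quantiles (0.0266), with DESeq2 (0.00756), and without both libraries that stood apart (0.00522), and over it in all 6 fits that left out 1 library (0.0702 to 0.234). DESeq2 called 20.7% of all genes tested, and the fit without both libraries 30.6%. PLIN5, the perilipin of oxidative muscle that binds PNPLA2 and ABHD5, had 272, 235 and 260 normalized counts in the wild type. In the knockout it had 191, 114 and 158, again all lower, with a mean of 60.4% of the wild type. Its log2 fold change of -0.75 (SE 0.30, interval -1.45 to -0.06) had a limma adjusted p of 0.149, and 0.0383 without both libraries that stood apart.

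PLIN3, which moves between the cytosol and nascent droplets, was the most abundant member. It had 8369, 6789 and 7726 normalized counts in the wild type and 5269, 7368 and 7741 in the knockout, and only knockout replicate 1 lay under the wild-type range. The log2 fold change was -0.18 (interval -0.68 to 0.31, limma adjusted p = 0.644), and -0.01 without knockout replicate 1. PLIN4, a perilipin with a long run of repeats, had 43.8, 12.2 and 14.7 normalized counts in the wild type and 141, 27.9 and 14.2 in the knockout. Its log2 fold change of 0.92 (interval -1.19 to 3.02, limma adjusted p = 0.575) rested on knockout replicate 1, without which it was -0.0027. PLIN4 and PLIN5 are neighbours on chromosome 19, 4.1 kb apart, and PLIN3 lies 303.1 kb from PLIN5. The PLIN5 values of the genotypes were separated and those of PLIN4 and PLIN3 were not; whether the differences of these genes differ from each other was not tested.

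DGAT1 and DGAT2 catalyse the same reaction with unrelated proteins. DGAT1 had 1914, 1709 and 1798 normalized counts in the wild type and 2630, 2608 and 3184 in the knockout, so that every knockout library was higher and the mean was 1.55 times the wild type. The log2 fold change was 0.63 (SE 0.18, interval 0.21 to 1.05), with a limma adjusted p of 0.0596. With equal totals, which lowered the median of all genes to -0.28, it was 0.35 (limma adjusted p = 0.356). DGAT1 was under the threshold with DESeq2 (adjusted p = 0.00668) and, with limma, without both libraries that stood apart (0.0107). Those 2 fits called 20.7% and 30.6% of all genes tested. DGAT1 was over the threshold in all 6 limma fits that left out 1 library (0.0580 to 0.212). It was also over with edgeR (0.0663) and with the replicate block (limma, 0.249). DGAT2 had 290, 222 and 330 normalized counts in the wild type. The knockout libraries had 198, 203 and 200, close together and all lower, but the wild-type spread was wide. The log2 fold change was -0.47 (interval -1.09 to 0.16, limma adjusted p = 0.314). The enzymes thus lay on opposite sides of the wild type, with neither past the threshold.

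**Figure D2:**
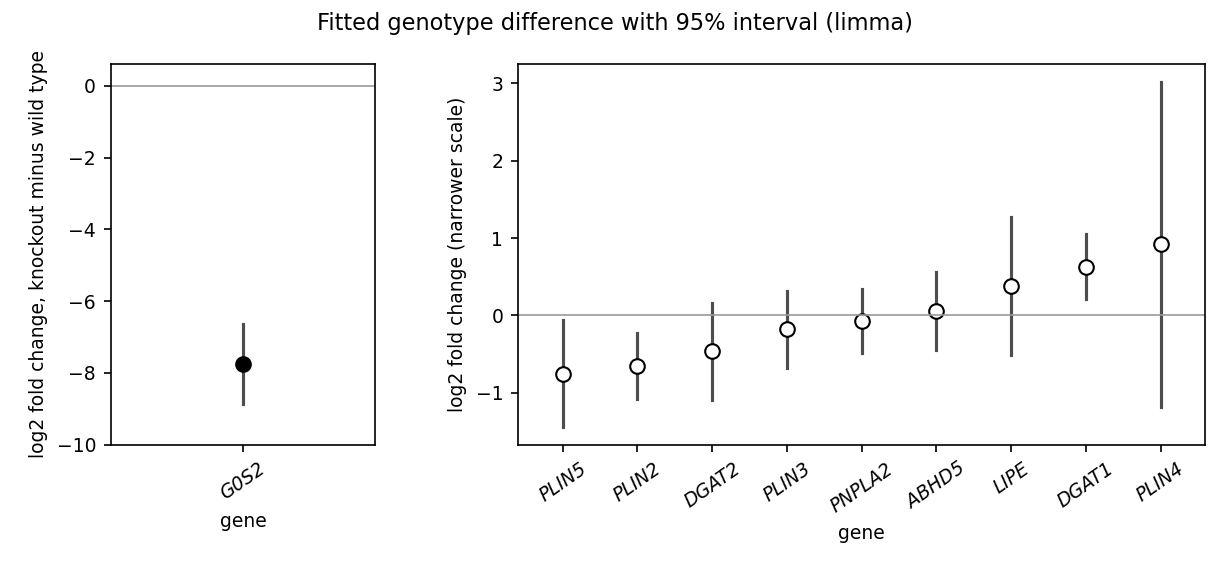
Log2 fold change of each member, knockout minus wild type, as points with 95% intervals from limma; the filled point has an adjusted p under 0.05, and G0S2 has a panel of its own on a wider scale. G0S2 stood at -7.76, and the other 9 lay between -0.75 and 0.92, with intervals clear of 0 for PLIN5, PLIN2 and DGAT1.

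Levels can be compared between genes only per length, here as normalized counts per kb of merged exons. On that scale the wild-type means were 3270 ± 341 for PLIN3, 2665 ± 259 for PLIN2, 789 ± 335 for G0S2, 549 ± 39.4 for PNPLA2 and 487 ± 27.6 for DGAT1 (SD, n = 3 each). DGAT2 followed at 114 ± 22.1, ABHD5 at 95.5 ± 5.51, PLIN5 at 59.5 ± 4.43, LIPE at 39.1 ± 15.1 and PLIN4 at 3.62 ± 2.70. PLIN3 and PLIN2 kept their places in each library, but G0S2, PNPLA2 and DGAT1 changed order between wild-type libraries, as did DGAT2 and ABHD5, so these neighbours are not told apart. The wild-type level of G0S2 was above that of 80.4% of the tested genes with a length. In the knockout the order was PLIN3, PLIN2, DGAT1, PNPLA2, ABHD5, DGAT2, LIPE and PLIN5 in all 3 libraries, with G0S2 and PLIN4 last.

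Ratios within a library do not depend on how libraries were scaled. Per length there were 127, 205 and 96.7 G0S2 per 100 PNPLA2 in wild-type replicates 1, 2 and 3, and 0.280, 0.480 and 0.602 in the knockout. The inhibitor's transcript thus went from about the level of its lipase to under 1 per 100. The activator's ratio overlapped between genotypes, with 15.9 to 18.6 ABHD5 per 100 PNPLA2 in the wild type and 15.9 to 21.7 in the knockout. PLIN2 over PLIN3 was 0.821, 0.838 and 0.788 in the wild type and 0.660, 0.549 and 0.564 in the knockout, which do not overlap. DGAT1 over DGAT2 was 4.36, 5.08 and 3.61 in the wild type and 8.77, 8.50 and 10.5 in the knockout. PLIN5 made up 0.959% to 1.01% of the summed perilipins in the wild type and 0.538% to 1.16% in the knockout, which overlap. Set against PNPLA2, there were 9.55 to 12.6 PLIN5 per 100 in the wild type and 4.94 to 8.49 in the knockout, which do not. These ratios were formed with the members' differences known and are given with no test.

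**Figure D3:**
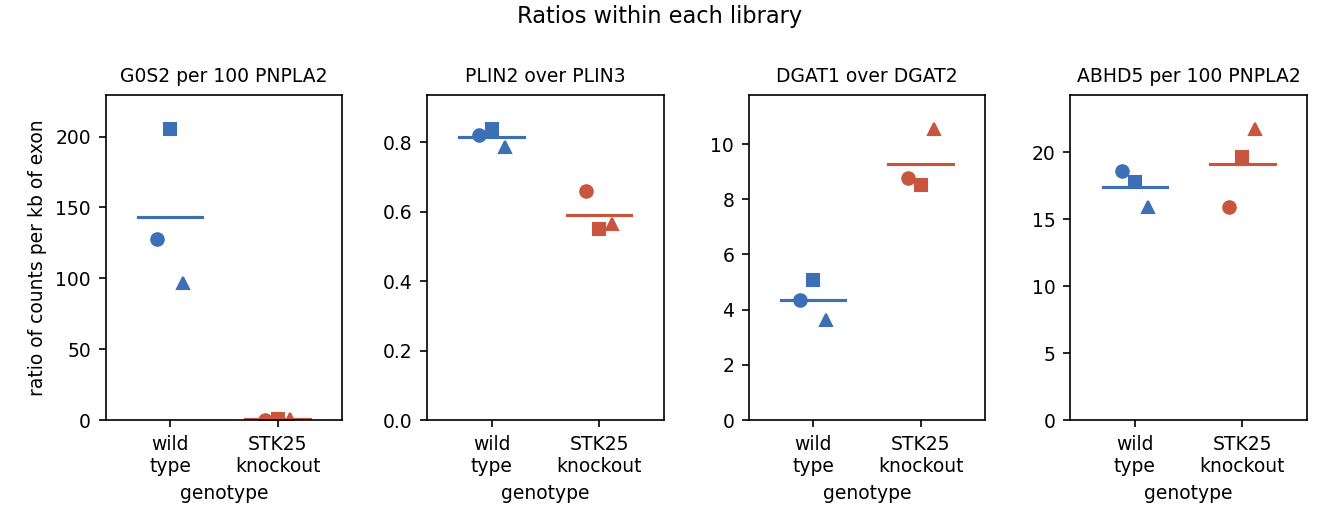
Ratios of normalized counts per kb of exon within each library, by genotype, with bars at the means and axes from 0. G0S2 per 100 PNPLA2 was 96.7 or more in the wild type and at most 0.602 in the knockout; PLIN2 over PLIN3 and DGAT1 over DGAT2 were separated, and ABHD5 per 100 PNPLA2 overlapped.

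Because G0S2 was close to absent, the genes within 500 kb of it were read as well. Of 11 listed neighbours, 8 were tested and 2 passed the threshold, in opposite directions, against 12.8% of all genes tested. So few genes cannot tell 2 calls from that share. HSD11B1, which makes active cortisol and lies 9.8 kb downstream, had 0 reads in all 3 wild-type libraries and 133, 42.4 and 49.8 normalized counts in knockout replicates 1, 2 and 3. Set against 3 reads in each wild-type library, its knockout mean of 75.2 was at least 25.8-fold higher, a mean raised by knockout replicate 1. The log2 fold change of HSD11B1 was 6.06 (limma adjusted p = 0.00268), and 5.55 to 6.37 over the fits that left out 1 library. The neighbour on its other side, LAMB3, a laminin chain 23.0 kb away, had 19.6, 49.5 and 65.7 normalized counts in the wild type and 86.4, 412 and 277 in the knockout (limma adjusted p = 0.0585; 0.0142 without knockout replicate 1 and 0.0906 to 0.188 in the 5 other fits that left out a library). CAMK1G, a kinase gene 61.5 kb away, had 130, 62.5 and 185 against 12.7, 0 and 17.8 (limma adjusted p = 0.0473), and passed 0.05 only narrowly: the value was 0.154, 0.0727 and 0.156 without wild-type replicate 1, 2 or 3 and 0.0582 without knockout replicate 3. These 3 genes were picked after their values were seen. HSD11B1, with 0 wild-type reads, had no level from which it could have been lower.

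**Figure D4:**
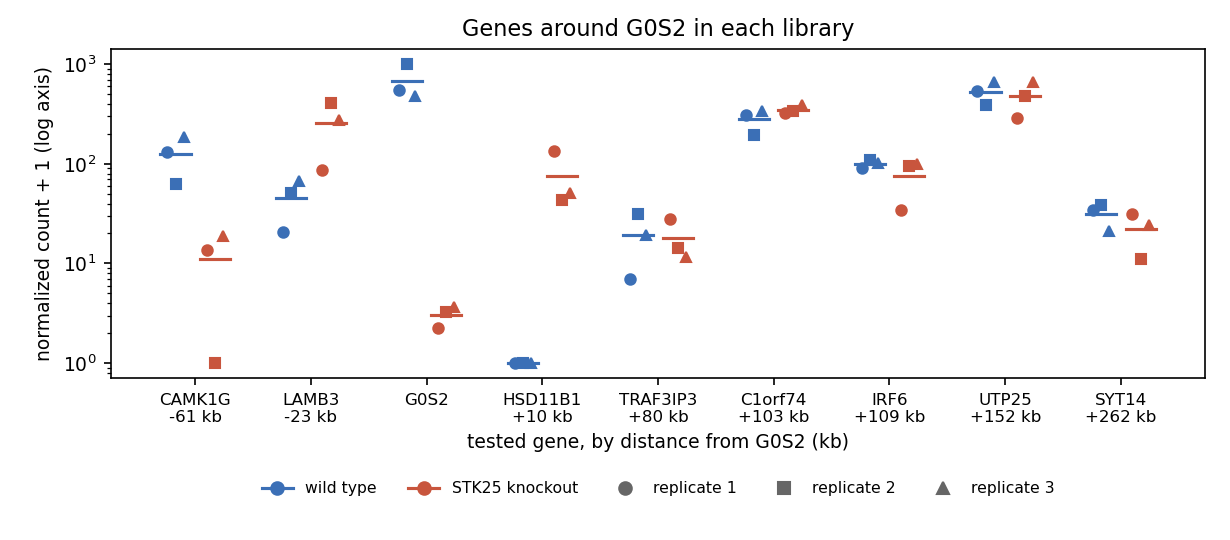
Normalized counts plus 1, on a log axis, of G0S2 and the 8 tested genes within 500 kb, ordered by position with the distance from G0S2 in kb; colours and symbols give genotype and replicate, bars the means. HSD11B1 went from 0 in every wild-type library to 42.4 or more, beside the fall of G0S2.

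The tested genes whose log2 values followed those of G0S2 most closely over the 6 libraries were FASTK, TMEM176A, GSTT2B, TYMS and CCDC152, with Pearson r from 0.9985 to 0.9990. With 6 libraries in 2 genotypes such values describe a gap between the genotypes with wild-type replicate 2 highest, and 583 tested genes had an r above 0.95. TMEM176A, a membrane channel-like protein, had 501, 855 and 450 normalized counts in the wild type and 5.08, 5.57 and 5.33 in the knockout. FASTK (151076593 to 151080866) and TMEM176A (150800403 to 150805120) lie near each other on chromosome 7. GSTT2B has a near-identical neighbour, GSTT2, so its count is uncertain.

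The other genes of lipid storage and use were read from 6 lists by function, 94 genes in all, of which 73 were tested. Of these, 8 were higher and 6 lower past the threshold, 19.2% against 12.8% of all genes tested, with a median log2 fold change of 0.13. Only 7 of the 14 kept their call in all 6 fits that left out 1 library: METTL7A, PNPLA3, CES1, VLDLR, FABP3, SLC27A6 and RXRG. Without knockout replicate 3 there were 8 calls and without wild-type replicate 1 there were 9. Over all genes tested, the share called was 6.18% and 5.11% in these fits. Without both libraries that stood apart there were 27 (37.0%), of which 17 were higher (23.3%), in a fit that called 30.6% of all genes tested and 15.7% as higher.

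Droplet coat and biogenesis genes outside the members had 3 of 12 tested lower and 0 higher (25% called). Over all genes tested, 12.8% were called, 6.79% lower and 5.97% higher. The lists are short, and no list was tested as a set. FITM1, the muscle form of a protein that promotes droplet formation, fell from a wild-type mean of 12482 normalized counts to 3657 in the knockout (SD 4623 and 1303, 3 libraries per genotype). Its log2 fold change was -1.77 ± 0.34 (SE) and its limma adjusted p 0.0150, which became 0.0546 when wild-type replicate 1 was left out and 0.0607 when knockout replicate 3 was. METTL7A, a droplet-associated methyltransferase-like protein, had 160, 178 and 221 normalized counts in the wild type and 40.7, 39.0 and 39.1 in the knockout (log2 fold change -2.19, limma adjusted p = 0.00556). Its relative METTL7B went from 118, 219 and 80.4 to 8.90, 14.5 and 0 (limma adjusted p = 0.0262), with 0.0943, 0.0825 and 0.0699 without wild-type replicates 1, 2 and 3 and 0.0821 with a pseudocount of 0.1. PLIN1, CIDEA, CIDEB, CIDEC and HSD17B13 were under the count minimum. HILPDA, another inhibitor of PNPLA2, had 708, 1206 and 747 normalized counts in the wild type. In the knockout it had 1177, 915 and 810, which overlapped.

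Of 10 tested lipolysis genes outside the members, 2 were higher and 1 lower (30%, against 12.8% of all genes tested). PNPLA3, a relative of PNPLA2 that binds ABHD5, rose from 174, 84.5 and 164 normalized counts to 454, 587 and 506 (log2 fold change 1.93, limma adjusted p = 0.0109). LIPA, the lysosomal acid lipase, went from 199, 250 and 258 to 431, 827 and 675 (limma adjusted p = 0.0226); the value was 0.101, 0.0682, 0.0768 and 0.0909 without wild-type replicates 1 or 3 or knockout replicates 2 or 3, and 0.0890 with equal totals. CES1, a carboxylesterase, fell from 875, 708 and 971 to 16.5, 8.92 and 7.11 normalized counts (log2 fold change -6.24, limma adjusted p = 0.000198); reads could be shared with its close pseudogene. Triglyceride and sterol ester synthesis outside the DGAT genes had 0 of 13 tested genes called by limma. The PPAR targets had 0 of 11, and the share of all genes tested was 12.8%.

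Fatty acid uptake and activation had the most calls, 4 higher and 1 lower of 13 tested (38.5%, against 12.8% of all genes tested). VLDLR, a receptor for triglyceride-rich particles, rose from 1835, 1449 and 2368 to 5623, 8282 and 6635 normalized counts (log2 fold change 1.87, limma adjusted p = 0.00314). FABP3, the heart fatty acid binding protein, rose from between 11240 and 17286 normalized counts to between 38921 and 81452, highest in knockout replicate 1 (limma adjusted p = 0.00751). LIPG, an endothelial-type lipase, went from 51.4, 32.0 and 17.2 to 154, 246 and 245 (limma adjusted p = 0.0103), with 0.0519 without knockout replicate 3. CD36, a fatty acid transporter, went from a mean of 88.1 ± 30.4 to one of 227 ± 25.7 (SD over 3 libraries per genotype, limma adjusted p = 0.0354), but its adjusted p was over the threshold in each fit that left out a library other than wild-type replicate 3, up to 0.139 without wild-type replicate 1, and 0.0858 with equal totals. SLC27A6, a heart fatty acid transporter, fell from 2535, 1101 and 2398 to 1.27, 62.4 and 40.0 normalized counts (log2 fold change -6.71, limma adjusted p = 0.00945). It had 1 read in knockout replicate 1, and its log2 fold change ran from -7.61 to -5.21 over the fits that left out 1 library.

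Of 14 tested PPAR and lipid transcription factors 2 were higher and 1 lower (21.4%, against 12.8% of all genes tested). PPARG, the receptor best known from fat cells, had 13, 2 and 2 reads in wild-type replicates 1, 2 and 3 and 97, 95 and 117 in the knockout (log2 fold change 4.51, limma adjusted p = 0.0158); leaving out the third library of the wild type gave 0.0545 and that of the knockout 0.0635. SREBF1, a driver of lipid synthesis genes, went from 730, 685 and 744 to 1305, 1660 and 1460 normalized counts (limma adjusted p = 0.0137); the value was 0.0701, 0.0545, 0.0568 and 0.0619 without wild-type replicates 1 or 3 or knockout replicates 2 or 3, and 0.0982 with equal totals. RXRG, a partner of PPARs, fell from 2559, 2713 and 2986 to 769, 836 and 1138 normalized counts (log2 fold change -1.61, limma adjusted p = 0.00332). PPARA, with 400, 558 and 343 against 1522, 687 and 592 normalized counts, did not pass although the genotypes were separated (limma adjusted p = 0.142).

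**Figure D5:**
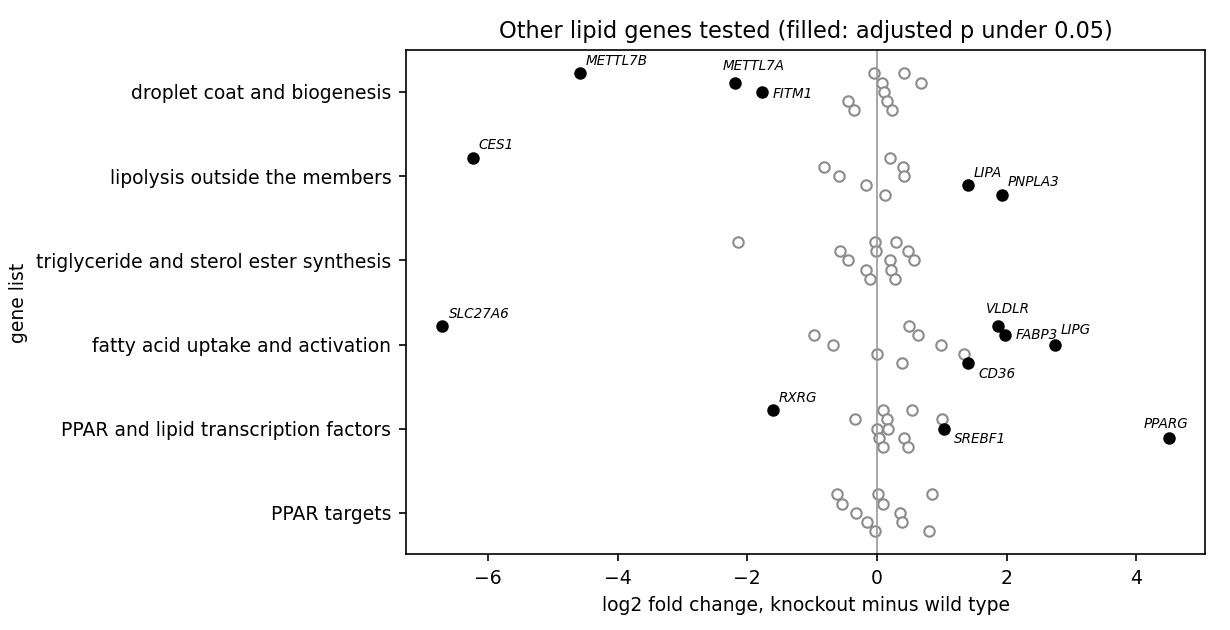
Log2 fold change, knockout minus wild type, of the 73 tested genes of the 6 lipid lists, 1 point per gene; filled points have an adjusted p under 0.05 and carry their symbol. The 14 calls ran from -6.71 for SLC27A6 to 4.51 for PPARG, and the synthesis and PPAR target lists had 0. Over all genes tested 12.8% were called.

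Markers of other cells were read beside these values. Of the 7 adipocyte markers 0 reached the count minimum, with FABP4 at no more than 3 reads in any library. Their sum was 15.1 to 28.7 normalized counts in the wild type and 14.2 to 20.3 in the knockout. Smooth muscle markers were higher in the knockout for 5 of 5 genes (sum 79383 to 89832 in the wild type, 491950 to 539638 in the knockout), and fibroblast markers for 3 of 7, with 0 lower past the threshold. Over all genes tested, 5.97% were called higher and 6.79% lower. COL3A1 was 5.85-fold, DCN 6.80-fold and TCF21 21.1-fold higher in the knockout (limma adjusted p = 0.0172, 0.0276 and 0.00952), and COL1A1 was at 46.9% with separated genotypes and POSTN at 26.4%, which did not pass (0.0789 and 0.134). The fibroblast sums, 8713 to 17297 in the wild type and 8073 to 16279 in the knockout, overlapped; in the wild type they are mostly COL1A1 (7131 to 14001). Endothelial, macrophage and pluripotent markers had 0 called of 3, 5 and 3 tested, against 12.8% of all genes tested. Of 10 hepatocyte markers 6 were tested, with 1 higher and 2 lower. APOB went from a mean of 1.72 to 366 normalized counts (limma adjusted p = 0.000938), AFP from 104 to 2.03 (0.00661), and FGB from 38.2 to 0 in every knockout library (0.0121). Their sum, 1842 to 3212 and 1568 to 1806, is mostly APOA1 (1482 to 2873 and 1164 to 1226), and FOXA2 was at 0 reads throughout. The part of these cell types in the lipid gene values was not tested, and in bulk RNA fewer cells of a type and less RNA per cell cannot be told apart.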

How the data were processed

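The deposited table holds 1 normalized count per gene symbol for each of 6 libraries, a signal that the authors scaled before they deposited it. The submitters' processing notes name bcl2fastq 2.19, kallisto 0.44.0, DESeq2 1.28.1 and GRCh38, without their roles; annotation, filters and strand are not given in the sources used here. Per the labels' protocols, column-purified, DNase-treated RNA went through a Clontech Ultra Low v4 and NexteraXT workflow. Every value (100%, within 0.001 of a read) was a whole multiple of 1 step per library, which gave back whole reads and the depths printed; whether these were rounded estimated counts is not stated. Columns were matched to samples by the labels, and 0 were unused. Replicates of a genotype differed by more than sampling noise (lowest chi-square over its degrees of freedom 18.9). Intervals and the floor of 3 reads reflect counting alone.

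limma 3.58.1 in R 4.3.3 (lmFit, eBayes with trend) was run on log2(value + 1) where a gene averaged 10 or more, over all 6 libraries with no covariate; p-values are two-sided, Benjamini-Hochberg adjusted over these 15536 genes and called under 0.05. Alternatives were pseudocounts of 0.1 and 10, no minimum or one of 50, 3 other scalings, a replicate block, eBayes without trend, each library left out, edgeR 4.0.16 and DESeq2 1.42.0 on the recovered reads and, added after seeing the data, both outlying libraries left out. The fits were tested on simulated data. Named are the 10 members, STK25, up to 4 called genes per lipid list and direction, and the 5 genes most like G0S2; a few others were named after their values were seen. Members and lists were chosen with earlier results of these data known. Positions and exon lengths are from GENCODE 29, matched by symbol (97.7% of tested genes). Promoter sequences are from RefSeq. Figures used matplotlib 3.10.9.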

Additional observations from a re-analysis of the deposited data

How the results depend on the processing

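G0S2 kept its direction and its call in all 18 alternatives, with log2 fold changes from -8.34 to -5.77. The members called numbered 1 in each fit that left out 1 library, and these fits called 5.11% to 14.2% of all genes tested. They were 2, both lower (G0S2 and PLIN2), with equal upper quartiles, equal totals or quantiles, 3 with DESeq2 (2 lower and 1 higher, DGAT1; 20.7% of all genes called) and 4 without both libraries that stood apart (3 lower and 1 higher; 30.6% of all genes called). ABHD5 turned negative with equal totals (-0.23) and over the fits that left out 1 library ran from -0.025 to 0.18; PLIN4 ran from -0.0027 to 1.61 in those fits, was -0.34 without both outlying libraries, and was not tested with a mean of at least 50. Calls over all genes were 798 with the replicate block, 3210 with DESeq2, 4706 without both outlying libraries and from 792 to 2192 with 1 library left out. The lipid lists had from 8 to 13 calls with 1 library left out, 3 to 7 of them higher. Over all genes tested, those fits called 5.11% to 14.2%, and 2.37% to 6.48% as higher. Without both outlying libraries the lists had 27, 17 higher and 10 lower, against 30.6%, 15.7% and 14.9% of all genes tested. Higher calls of the lists were 5 with equal totals (6.94%) and 5 with the replicate block (6.85%). The higher share of all genes tested was 3.52% and 2.24% there.

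Replicate numbers are shared between genotypes, but nothing in the labels says that they pair cultures. Deviations from the genotype means correlated at -0.23, -0.40 and 0.17 for replicates 1, 2 and 3, so the numbers were not taken as pairs, and not every library correlated best with its own number. With the replicate block, where 5.14% of all genes were called, G0S2 was the only member called, as in the fit without it. STK25 (limma adjusted p = 0.0684), FITM1 (0.0630), LIPA (0.0630), CD36 (0.104) and SREBF1 (0.0955) were over the threshold with the block. Depth limits PLIN4, with at most 111 reads in a library, and G0S2 in the knockout.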
